A study of Mus musculus with 6 samples.

Results

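The desmosome genes measured here are the 10 rows of the gene count table that carry the symbols Dsg1a, Dsg2, Dsg3, Dsc1, Dsc2, Dsc3, Jup, Dsp, Pkp1 and Pkp3, out of 22295 genes in the table. The rows were taken by symbol, and the list of symbols was set with earlier results of these data known. RNA was sequenced from GFP-positive keratinocytes that were FACS-sorted from the back skin of mice on an FVB background (FVB/N in the methods), with 3 libraries from K19 *Itga3* WT mice (19(Cre-ERT); mTmG) and 3 from K19 *Itga3* KO mice (19(Cre-ERT); mTmG; Itga3 fl/fl). Cre is driven by the promoter of keratin 19, a marker of the hair bulge (HB), and is switched on by tamoxifen. It turns HB cells and their progeny green in both lines and removes the floxed part of *Itga3*, which encodes integrin α3, in the KO line only. Mice of both lines received tamoxifen at 6 weeks of age (10 mg/ml, over 4 days), per the labels. The methods of the study give another concentration, a slightly earlier start and an added topical dose. At 7 weeks of age 30 μg of the carcinogen DMBA in 200 μl of acetone was applied once, and repeated applications of 12.34 μg of the tumor promoter TPA followed. The study describes this as short-term treatment, at a stage before tumors had formed. No untreated mice were sequenced, so every level below is that of DMBA/TPA-treated skin.

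Desmosomes are the spot-like junctions that tie the keratin filaments of neighboring keratinocytes together. Desmogleins (Dsg) and desmocollins (Dsc) are cadherins that span the membrane and bind each other across the gap between cells. Inside the cell, plakoglobin (Jup) and the plakophilins (Pkp) bind their tails, and desmoplakin (Dsp) links this plaque to keratin. In stratified epidermis the cadherins change with height: Dsg3 and Dsc3 are strongest in the basal layer, Dsg1 and Dsc1 in the layers above it, and Dsg2 and Dsc2 are the forms of simple epithelia that are weak in the interfollicular epidermis. The question put to the data was how the basal and suprabasal isoforms stood in each WT and KO library.

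The libraries held 20578309 to 23670507 counts on genes and no column could be tied to a sample number. They are named by letter, WT a to WT c and KO a to KO c, and values given per library keep that order. Levels are CPM, the counts scaled to library totals and to TMM normalization factors between 0.981 and 1.03. The study describes the sorted cells as coming from 3 mice of each genotype, so the spread between libraries is taken as that between mice. Itga3 stood at 371, 253 and 271 CPM in the WT libraries and at 131, 124 and 134 CPM in the KO libraries (edgeR adjusted p = 0.00283 for a log2 fold change of −1.20 with a standard error of 0.13). It was thus lower in each KO library but still counted, and reads on exons outside the floxed part, as well as cells without recombination, would both count here. Markers of basal keratinocytes (5 of 5 found, led by Krt5) summed to 26460 to 40090 CPM in WT and 30800 to 35720 CPM in KO, and HB markers (6 of 6, led by Krt15) to 12240 to 18330 and 11490 to 14910 CPM. Cd34, an HB surface marker, was the only one of these 11 genes to pass the test, at a log2 fold change of −0.72 in edgeR (adjusted p = 0.0462, standard error 0.14). Of other cell types, the 6 fibroblast markers summed to 116 to 178 CPM in WT and 48.1 to 80.3 CPM in KO, and the 4 endothelial markers to 5.56 to 8.67 and 3.70 to 4.97 CPM, so both sums were lower in every KO library. The sums were carried by Col1a1, Col1a2 and Tek (log2 fold changes −1.19, −1.18 and −1.49). Pdgfra (−1.30) and Kdr (−0.62) were also below 0. Col3a1, Dcn, Lum, Pecam1 and Cdh5 had log2 fold changes above 0, where Col3a1 had 0 counts in each WT library. None of the 10 genes passed the test. The 6 immune markers lay between 5.73 and 10.5 CPM and the 5 melanocyte markers between 6.33 and 13.4 CPM, with overlap. Lum, Lyz2 and Cdh5, which define fibroblasts, myeloid cells and endothelium, had at most 3 counts in each library. The part of these other cells in the results below was not tested.

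All 10 desmosome genes were counted in every library, with 439 counts (Dsc2 in WT a) to 124396 counts (Dsp in WT c), so counting error was small for each of them. Levels of different genes are compared as CPM per kilobase of exon, and those of 1 gene between libraries as CPM. Dsp, the desmoplakin gene, was the most abundant, at 530 ± 46.8 CPM per kb in WT and 511 ± 28.8 CPM per kb in KO (SD, n = 3). It was followed by Pkp1 (284 ± 27.5 and 343 ± 6.88), Dsc3 (270 ± 28.2 and 275 ± 4.45), Jup (223 ± 19.8 and 256 ± 12.0), Pkp3 (188 ± 6.91 and 189 ± 9.11) and Dsg3 (125 ± 5.92 and 108 ± 5.82), each as CPM per kb in WT and KO. These 6 genes ranked at or above percentile 98.52 of all tested genes on this scale.

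A wide gap separated them from the remaining 4 cadherins. Dsg1a stood at 23.8 ± 7.18 CPM per kb in WT and 32.5 ± 3.399 CPM per kb in KO, Dsc1 at 11.2 ± 2.95 and 14.7 ± 3.74, Dsg2 at 12.7 ± 1.87 and 11.3 ± 0.492, and Dsc2 at 4.34 ± 0.890 and 4.81 ± 0.338 (SD, n = 3). Even the lowest library had 2.81 times as much Dsg3 as Dsg1a per kb, and the highest had 7.43 times as much. Neighbors in this order whose ranges over the 6 libraries overlapped were Pkp1 and Dsc3, Dsc3 and Jup, Dsg1a and Dsc1, and Dsc1 and Dsg2. Within a library the order was nevertheless the same for the first 3 of these pairs in 6 of 6 libraries, whereas Dsc1 exceeded Dsg2 in 4 of 6, with ratios from 0.653 to 1.75. The plot of levels by library shows the 6 abundant genes, the step down to Dsg1a, and the low position of Dsc2.

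**Figure D1:**
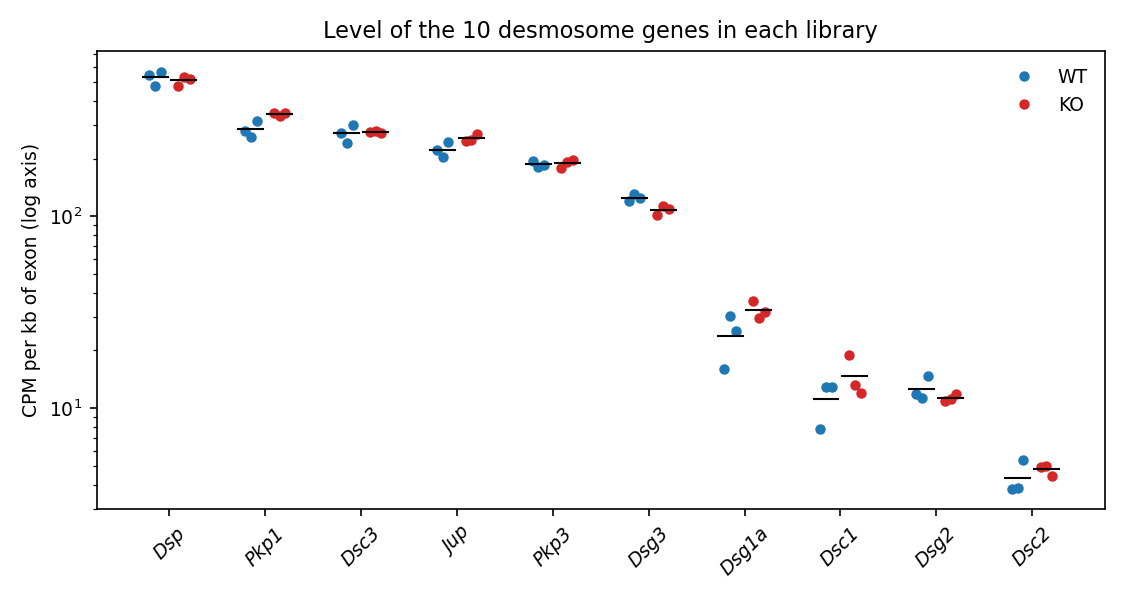
Level of each desmosome gene in CPM per kb of exon (log axis) in the 3 WT (blue) and 3 KO (red) libraries, with black lines at the group means. Dsp lies highest at 478 to 568 CPM per kb, Dsc2 lowest at 3.82 to 5.36 CPM per kb, and Dsg1a and Dsc1 have their lowest point in a WT library.

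Between the genotypes, none of the 10 genes passed the test (edgeR's quasi-likelihood test, adjusted p below 0.05 over the 21681 genes tested, where 0.673% of all genes passed). At an unadjusted p below 0.05, 3 of the 10 did, against 11.5% of all genes tested. All 10 had a mean log2 CPM above 4, where 1403 of 8529 genes had such a p. Limma-voom and DESeq2 also called 0 of the 10, each with 4 at an unadjusted p below 0.05. The median log2 fold change of the 10 was 0.09, from −0.22 (Dsg3) to 0.45 (Dsg1a), with 7 above and 3 below 0, and that of all genes tested was 0. The KO libraries lay entirely above the WT libraries for 2 genes, Pkp1 and Jup, and entirely below for 1, Dsg3, where 8.03% and 8.23% of all genes tested had such a separation. Of the 8529 genes with a mean log2 CPM above 4, 1071 were entirely higher in KO and 825 entirely lower. Summed over the 10 genes, the level was 11340, 10460 and 12140 CPM in the WT libraries and 11220, 11800 and 11790 CPM in the KO libraries, which is 1.08% to 1.21% of all counts in each library. The groups overlapped in this sum. In sorted cells of this kind, fewer cells of a type and less RNA per cell cannot be told apart.

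The 2 suprabasal cadherins had the highest fold changes of the 10, on the widest spread. Dsg1a (ENSMUSG00000069441, chromosome 18, 20310811 to 20343350, plus strand, GRCm38) encodes desmoglein 1α, a cadherin of the upper layers. It stood at 91.4, 172 and 143 CPM in the WT libraries and at 205, 167 and 181 CPM in the KO libraries. WT a was by far the lowest library, and KO b lay below WT b, so the groups overlapped. The log2 fold change was 0.45 (95% confidence interval 0.05 to 0.84, adjusted p = 0.369, edgeR). It was 0.24 when WT a was left out and 0.65 when WT b was left out, without passing in either case (adjusted p = 0.388 and 0.142).

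Dsc1 (ENSMUSG00000044322, chromosome 18, 20084703 to 20114773, minus strand), the desmocollin of the upper layers, stood at 39.2, 64.95 and 65.08 CPM in the WT libraries and at 95.8, 66.8 and 60.4 CPM in the KO libraries. As for Dsg1a, WT a was the lowest and KO a the highest library, and the other 4 lay within 60.4 to 66.8 CPM. The log2 fold change of 0.40 (95% confidence interval −0.04 to 0.84, adjusted p = 0.491, edgeR) was 0.17 without KO a and 0.20 without WT a. Within a genotype the SD of log2 CPM was 0.348 for Dsg1a and 0.386 for Dsc1, at percentiles 95.1 and 96.4 of the 8529 genes with a mean log2 CPM above 4, whose median was 0.122. The library-to-library spread of both genes was thus among the largest of these genes, which were not matched for level.

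The summed level of 6 other suprabasal markers (Krt1, Krt10, Krtdap, Ivl, Lor and Flg) was 1382, 1964 and 1734 CPM in the WT libraries and 1842, 1750 and 1788 CPM in the KO libraries. WT a was lowest here too, but WT b was highest in the sum. Krt10, Lor and Flg had their highest level in WT b, while Krt1 was the most abundant of the 6. Krt1 and Krtdap had WT a lowest and KO a highest, as Dsg1a and Dsc1 did, at 649 and 889 CPM for Krt1 and 233 and 404 CPM for Krtdap. Lor and Flg instead had their lowest level in KO a, at 1.49 and 4.29 CPM, though Flg had 4.37 CPM in WT c. Krt10 and Ivl had WT a lowest, but their highest level was in WT b and KO c, respectively. None of the 6 passed the test (smallest adjusted p = 0.553, edgeR), and their log2 fold changes went both ways, at 0.07 for Krt1 and 0.03 for Krt10, the keratins of the spinous layer, 0.26 for Krtdap, 0.33 for Ivl, −0.26 for Flg and −0.69 for Lor.

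A limit specific to Dsg1a is its pair of near copies. Of its 5622 windows of 65 bases, the read length, 31.3% occur without a mismatch in transcripts of Dsg1b or Dsg1c, and 43.1% of those of Dsg1b occur in Dsg1a or Dsg1c. Reads from these windows were not counted, as only uniquely mapped reads were kept, so the levels of Dsg1a and Dsg1b are too low and their split is uncertain. The shared part was 4.51% for Dsp, 3.27% for Dsg2 and at most 0.472% for each of the other 7 desmosome genes. Dsg1b, desmoglein 1β, stood at 51.8, 50.7 and 69.3 CPM in the WT libraries and at 98.2, 79.5 and 83.8 CPM in the KO libraries, without overlap. Its log2 fold change was 0.61 (95% confidence interval 0.32 to 0.89), with an adjusted p of 0.0654 in edgeR that did not pass. Of 13 alternative fits only 1, DESeq2, called Dsg1b (adjusted p = 0.00608). Limma-voom did not (adjusted p = 0.147 with TMM factors and 0.152 with library size only). Dsg1c reached at most 33 counts in a library. Summed over the 3 copies, desmoglein 1 RNA stood at 144, 223 and 214 CPM in the WT libraries and at 304, 247 and 266 CPM in the KO libraries, and these groups did not overlap. This sum was not tested. Dsg1a made up 63.6% to 76.97% of the 3 in each library.

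Dsg3 (ENSMUSG00000056632, chromosome 18, 20510304 to 20541310, plus strand), the basal desmoglein and the classic autoantigen of pemphigus vulgaris, stood at 834, 916 and 872 CPM in the WT libraries and at 709, 789 and 759 CPM in the KO libraries. Every KO library was below every WT library, for which an exact permutation test (two-sided) gave p = 0.1, as small as 3 against 3 can give. The log2 fold change was −0.22 (95% confidence interval −0.42 to −0.01, adjusted p = 0.411, edgeR), and leaving out any 1 library kept it within −0.24 to −0.18. Dsc3 (ENSMUSG00000059898, chromosome 18, 19960930 to 20002097, minus strand), the basal desmocollin, had 1465, 1305 and 1610 CPM in the WT libraries and 1484, 1508 and 1460 CPM in the KO libraries. The KO libraries all fell inside the WT range, and the log2 fold change was 0.02 (95% confidence interval −0.21 to 0.25, adjusted p = 0.952, edgeR). The ratio of Dsg3 to Dsc3 per kb was 0.441, 0.544 and 0.420 in the WT libraries and 0.370, 0.405 and 0.402 in the KO libraries, which lay below every WT library, though KO b was close to WT c. This ratio was not tested.

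Dsg2 (ENSMUSG00000044393, chromosome 18, 20558074 to 20604521, plus strand) stood at 98.5, 93.4 and 122 CPM in the WT libraries and at 89.7, 92.0 and 97.6 CPM in the KO libraries. WT c was the highest library, and the log2 fold change was −0.17 (95% confidence interval −0.41 to 0.07, adjusted p = 0.617, edgeR). Dsc2 (ENSMUSG00000024331, chromosome 18, 20030633 to 20059554, minus strand) had the lowest level of all, at 20.2, 20.2 and 28.3 CPM in the WT libraries and at 26.2, 26.5 and 23.3 CPM in the KO libraries. Its log2 fold change was 0.15 (95% confidence interval −0.17 to 0.47, adjusted p = 0.681, edgeR). Both genes were detected throughout, though they are regarded as isoforms of simple epithelia.

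The plaque genes were abundant and even. Pkp1 (ENSMUSG00000026413, chromosome 1, 135871395 to 135919207, minus strand), a plakophilin of the upper epidermis that strengthens desmosomes, had 1399, 1306 and 1578 CPM in the WT libraries and 1739, 1683 and 1746 CPM in the KO libraries. Each KO library was above each WT library, again with p = 0.1 by exact permutation. Its log2 fold change of 0.27 (95% confidence interval 0.04 to 0.50) had the smallest adjusted p of the 10 genes, at 0.326 in edgeR, 0.260 in limma-voom and 0.111 in DESeq2, and did not pass in any of them. Jup (ENSMUSG00000001552, chromosome 11, 100368958 to 100397763, minus strand), plakoglobin, which is shared with adherens junctions, had 1429, 1309 and 1563 CPM in the WT libraries and 1598, 1604 and 1735 CPM in the KO libraries. The groups did not overlap here either, and the log2 fold change was 0.20 (95% confidence interval −0.03 to 0.43, adjusted p = 0.519, edgeR).

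Dsp (ENSMUSG00000054889, chromosome 13, 38151328 to 38198577, plus strand) had 5262, 4614 and 5485 CPM in the WT libraries and 4629, 5166 and 5020 CPM in the KO libraries. The log2 fold change was −0.05 (95% confidence interval −0.30 to 0.20, adjusted p = 0.872, edgeR). Pkp3 (ENSMUSG00000054065, chromosome 7, 141078218 to 141090510, plus strand), a plakophilin found in all epidermal layers, varied least, with 705, 656 and 673 CPM in the WT libraries and 646, 693 and 709 CPM in the KO libraries. Its highest library exceeded its lowest 1.098 times, compared with 2.44 times for Dsc1, and the log2 fold change was 0.01 (95% confidence interval −0.19 to 0.21, adjusted p = 0.997, edgeR). The intervals of Dsp and Pkp3 leave room for differences of at most 0.30 on the log2 scale in either direction. The ratio of Pkp1 to Pkp3 per kb was 1.43, 1.43 and 1.69 in the WT libraries and 1.94, 1.75 and 1.77 in the KO libraries, higher in each KO library. This ratio was not tested.

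**Figure D2:**
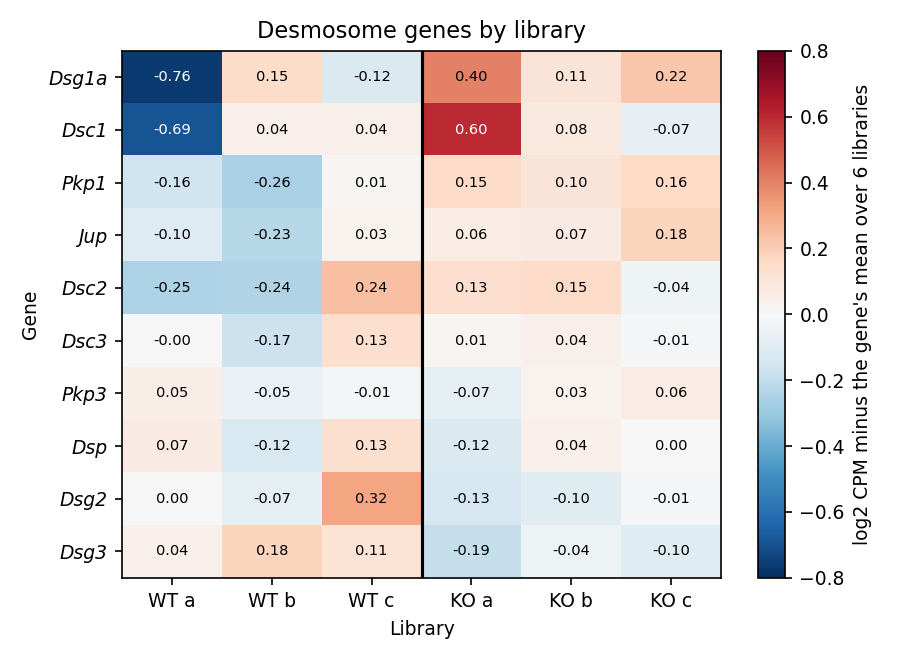
Heat map of log2 CPM minus the mean of each gene over the 6 libraries (color scale and numbers), with genes in rows, libraries in columns and a line between WT and KO. Dsg1a and Dsc1 are at −0.76 and −0.69 in WT a and at 0.40 and 0.60 in KO a, Pkp3 stays within −0.07 to 0.06, and Dsg3 is above its mean in 3 of 3 WT and below it in 3 of 3 KO libraries.

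The heat map of the 10 genes by library shows that most of the spread came from Dsg1a and Dsc1 in WT a and KO a. By root mean square distance between log2 CPM profiles over the 6 libraries, each centered on its own mean, Dsc1 lay at 0.166 from Dsg1a, rank 32 among the 8528 genes compared, whose median distance was 0.398. The 5 genes nearest to Dsg1a were Ly6d (0.0505), Nbeal2 (0.0933), Mocs1 (0.105), Chit1 (0.106) and Plbd1 (0.107). Nearest to Dsg3 were 2310035C23Rik (0.0134), Adipor1 (0.0137), Fchsd2 (0.0239), Kdsr (0.0267) and Arap1 (0.0284), where the median distance was 0.182. No desmosome gene was among these 10 nearest genes. None of the 10 passed the test between the genotypes, which largely follows from picking them by likeness to 2 genes that did not pass. The desmosome gene nearest to Dsg3 was Pkp3, at 0.135 and rank 2152.

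The basal and suprabasal isoforms were then set against each other within each library, which cancels differences in depth. Dsg1a made up 10.9%, 17.5% and 15.3% of desmoglein RNA (Dsg1a, Dsg2 and Dsg3, per kb) in the WT libraries and 24.3%, 19.1% and 20.9% in the KO libraries. This share averaged 14.6% ± 3.35 in WT and 21.5% ± 2.63 in KO (SD, n = 3), and all 3 KO libraries exceeded all WT libraries. Dsg3 took most of the rest, with 75.8% to 81.0% in WT and 68.4% to 73.6% in KO, and Dsg2 took 6.54% to 8.98% of the whole in all 6. The ratio of Dsg1a to Dsg3 per kb was 0.135, 0.230 and 0.201 in the WT libraries and 0.356, 0.260 and 0.293 in the KO libraries.

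Among the desmocollins no such separation was seen. Dsc1 made up 2.75%, 4.99% and 4.08% of desmocollin RNA in the WT libraries and 6.36%, 4.45% and 4.18% in the KO libraries, and Dsc3 held 92.0% to 95.9% throughout. Over all 6 cadherins the suprabasal share (Dsg1a and Dsc1) was 5.54%, 10.0% and 7.91% in the WT libraries and 12.3%, 9.45% and 9.99% in the KO libraries. The groups overlapped, since KO b and KO c lay just under WT b, and the means of 7.82% ± 2.23 and 10.6% ± 1.53 (SD, n = 3) differed by 2.77 percentage points. Without WT a this difference was 1.63 percentage points. The part of Dsg1 is understated here by the reads lost to its copies. With levels taken per unshared window, a choice made after these copies were seen, the shares were 10.0% in WT and 13.5% in KO, and with Dsg1b and Dsg1c added to the suprabasal side they were 10.7% and 14.8%. The total of cadherin RNA was close in both genotypes, at 448 ± 29.2 CPM per kb in WT and 446 ± 6.13 CPM per kb in KO. These shares and sums, and the ratio of Dsg1a to Dsg3, were taken over the chosen genes and were not tested.

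**Figure D3:**
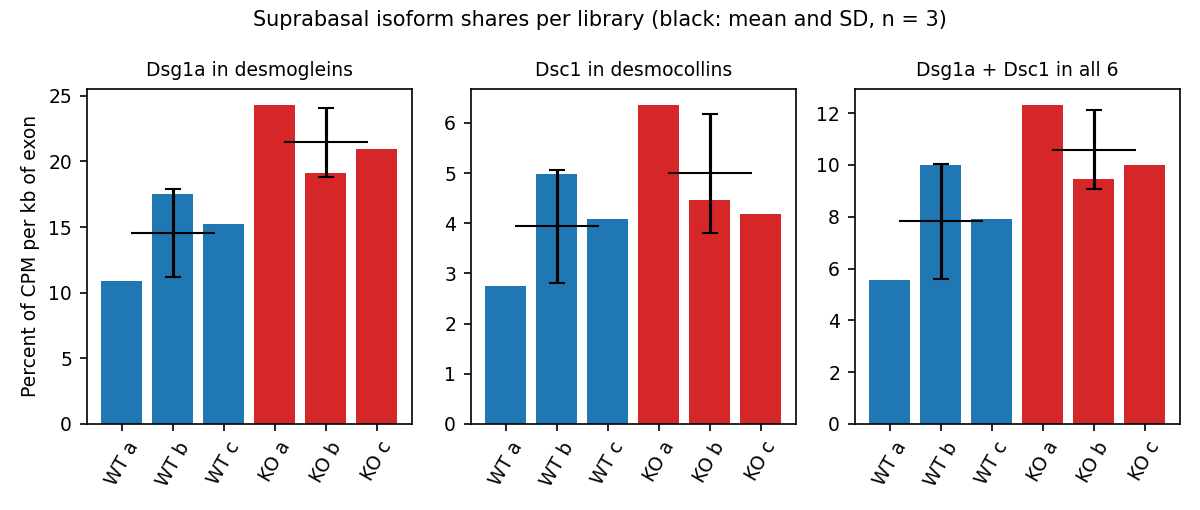
Percent of CPM per kb of exon that Dsg1a has among the desmogleins, Dsc1 among the desmocollins, and both among the 6 cadherins, as 1 bar per library (WT blue, KO red), with the mean and SD of each genotype in black. In the first panel all KO bars (19.1% to 24.3%) exceed all WT bars (10.9% to 17.5%), and in the other panels the genotypes overlap.

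The desmosomal cadherins share their position. All 6 lie within 644 kb on chromosome 18 (19960930 to 20604521, GRCm38), where 10 tested genes overlap this interval: the desmocollins Dsc3, Dsc2 and Dsc1 on the minus strand, the desmogleins Dsg1c, Dsg1a, Dsg1b, Dsg4, Dsg3 and Dsg2 on the plus strand, and the noncoding Gm16090 at the end of Dsg2. Their levels differed widely in this order, from 1472 CPM for Dsc3 and 24.1 CPM for its neighbor Dsc2 to 0.328 CPM for Dsg4 and 813 CPM for its neighbor Dsg3, as means over the 6 libraries. Fold changes differed along the cluster too, since Dsg1b (0.61) and Dsg3 (−0.22) lie 100 kb apart, with only Dsg4 between them.

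A list of 10 other desmosomal or desmosome-linked genes was measured alongside. Of these, 1 rose in KO at an adjusted p below 0.05 in edgeR and none fell, where 0.673% of all genes tested passed. The median log2 fold change was 0.20, beside 0 for all genes tested. The gene that passed was Kazn, the gene of kazrin, which binds the plakin periplakin. Kazn stood at 22.8, 22.7 and 20.02 CPM in the WT libraries and at 35.5, 29.5 and 39.5 CPM in the KO libraries, and each KO library was above each WT library. The estimated log2 fold change of 0.67 (standard error 0.13) had an adjusted p of 0.0449 in edgeR, close to the threshold. The call was lost in limma-voom (adjusted p = 0.128 with TMM factors and 0.143 with library size only), in edgeR with library size only (0.0541) and after filtering low counts (0.130 and 0.132). It was also lost when WT b, WT c, KO a or KO c was left out (0.0729, 0.368, 0.312 and 0.202), whereas DESeq2 gave 0.000824. The estimate itself stayed between 0.57 and 0.79.

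The other linked genes did not pass in edgeR. Perp, a membrane protein of desmosomes that p53 and p63 activate, was the most abundant of them, at 2703, 3415 and 3013 CPM in the WT libraries and 3172, 3175 and 3116 CPM in the KO libraries (log2 fold change 0.05, adjusted p = 0.873). Of the plakins that join the cornified envelope to desmosomes, envoplakin (Evpl) had a log2 fold change of 0.15 (adjusted p = 0.604). Periplakin (Ppl) had one of −0.29 (adjusted p = 0.671), with WT b at 285 CPM far above the other 5 libraries (133 to 180 CPM), and without WT b its log2 fold change was 0.09. Corneodesmosin (Cdsn), an adhesive protein of the outermost desmosomes, ranged from 28.8 to 62.2 CPM in WT and from 36.0 to 57.5 CPM in KO (0.24, adjusted p = 0.693). Pkp4 (0.04, adjusted p = 0.928) stood at 59.5 to 81.6 CPM. Pkp2, the plakophilin of simple epithelia and heart, lay between 1.47 and 3.05 CPM (0.49, adjusted p = 0.537), so that Pkp1 and Pkp3 made up nearly all plakophilin RNA of the classical kind.

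Dsg4, the desmoglein of the hair shaft, was near the floor of detection, taken as 3 counts. It had 1, 9 and 1 counts in the WT libraries and 22, 2 and 9 counts in the KO libraries (adjusted p = 0.556, edgeR). Markers of the inner root sheath and hair shaft, keratins and Tchh (4.76 to 6.38 CPM), were low as well but not absent. The 8 that were measured summed to 12.3, 24.1 and 15.4 CPM in the WT libraries and to 50.2, 19.4 and 43.5 CPM in the KO libraries. KO a was the highest library for both Dsg4 and this sum. Krt25, Krt28 and Krt35 of this list rose in KO (edgeR, adjusted p = 0.0256, 0.0461 and 0.0462), where 0.673% of all genes tested passed. The last 2 were close to the threshold. In the WT libraries Krt25 had 8, 14 and 4 counts and Krt35 had 6, 7 and 8. These 3 calls were not checked in the alternative fits. Whether cells of these lineages account for the Dsg4 counts was not tested.

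**Figure D4:**
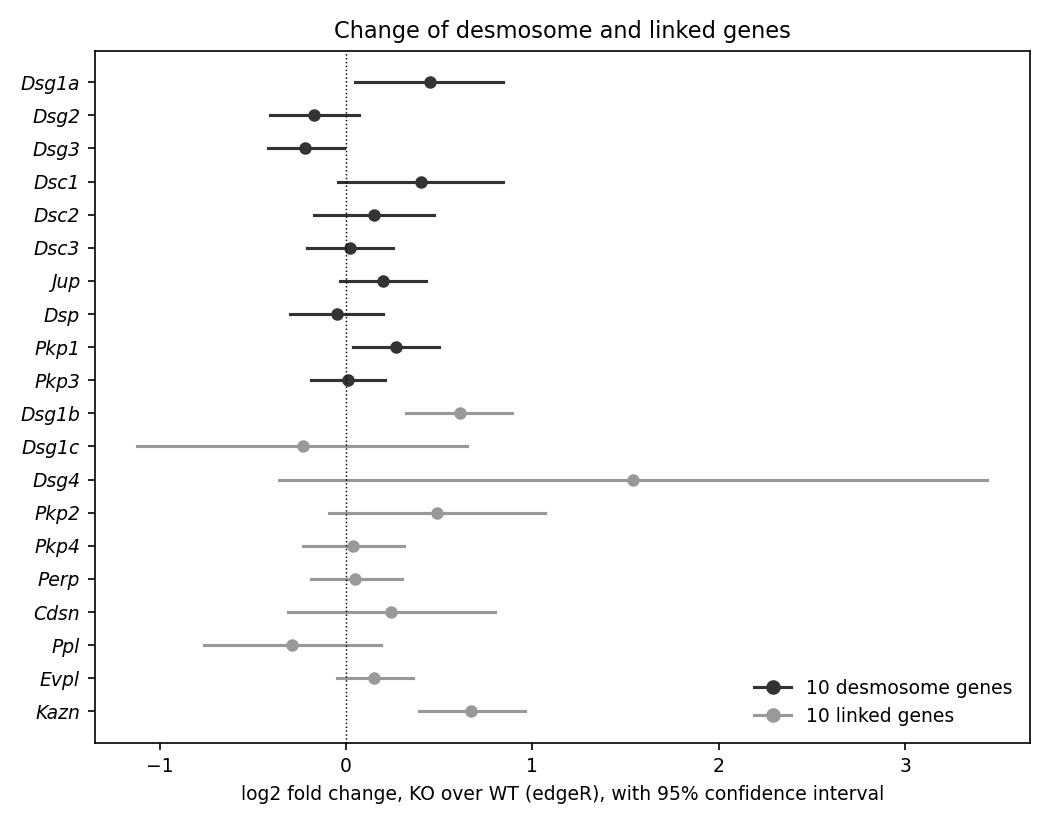
Log2 fold change of KO over WT from edgeR (points) with 95% confidence intervals (lines) for the 10 desmosome genes (dark) and 10 linked genes (gray). The widest intervals are those of Dsg4 and Dsg1c, which have the fewest counts, and Kazn and Dsg1b are the 2 linked genes whose intervals lie farthest above 0, at 0.39 to 0.96 and 0.32 to 0.89.

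Regulators of desmosomal genes or adhesion were examined as a list of 10. None passed the test in edgeR, 4 had an unadjusted p below 0.05 (11.5% of all genes tested did), and the median log2 fold change was 0.14. In 4 of the 10, Grhl1, Grhl3, Ovol1 and Adam17, the KO libraries lay entirely above the WT libraries, where 8.03% of all genes tested did. The first 3 of these had the smallest p. Of the 8529 genes with a mean log2 CPM above 4, 1403 had an unadjusted p below 0.05 and 1071 lay entirely higher in KO. Grhl1, a transcription factor known to activate Dsg1, stood at 69.2, 90.1 and 92.9 CPM in the WT libraries and at 123, 109 and 108 CPM in the KO libraries (log2 fold change 0.43, adjusted p = 0.137). Grhl3, its relative in barrier formation, stood at 18.1, 22.1 and 30.8 CPM in WT and 63.5, 32.6 and 35.8 CPM in KO (0.89, adjusted p = 0.144). Ovol1, which acts in epidermal differentiation, stood at 41.6, 50.8 and 56.4 CPM in WT and 128, 64.4 and 63.0 CPM in KO (0.78, adjusted p = 0.180). WT a was lowest and KO a highest for all 3 genes, as for Dsg1a and Dsc1. Trp63, the gene of the epidermal master regulator p63, differed by 0.01 (adjusted p = 0.997).

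Adherens junctions are the other cadherin junction of keratinocytes and served for comparison. None of 5 genes passed in edgeR (1 at an unadjusted p below 0.05). In 3 of the 5, Cdh1, Ctnnb1 and Ctnnd1, every KO library lay above every WT library. So it was for 2 of the 10 desmosome genes, 8.03% of all genes tested and 1071 of the 8529 with a mean log2 CPM above 4. The log2 fold changes of the 5 ran from −0.01 (Ctnna1) to 0.22 (Ctnnd1) with a median of 0.11. E-cadherin (Cdh1) had 734, 726 and 758 CPM in the WT libraries and 781, 782 and 826 CPM in the KO libraries, and P-cadherin (Cdh3), the basal form, 263 to 305 and 280 to 308 CPM. β-catenin (Ctnnb1), the relative of plakoglobin, had a log2 fold change of 0.17 (95% confidence interval −0.05 to 0.40, adjusted p = 0.577), beside 0.20 for Jup.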

How the data were processed

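Per the methods of the study, polyadenylated RNA gave strand-specific libraries of 65-base single reads, which the authors aligned with TopHat 2.1.0 to mouse genome build 38 with Ensembl gene models. The deposited values are raw counts of uniquely mapped reads per gene, counted by strand with the authors' own script, without normalization or pooling. Loss of multiply mapped reads lowers genes with close copies.

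Columns carry a genotype but no sample number, so libraries were unnumbered replicates. No 2 libraries were copies (chi-square per degree of freedom at least 10.7). The 614 genes without a count were dropped. The other 21681 were fitted with edgeR 4.0.16 (R 4.3.3; TMM, glmQLFit, glmQLFTest), with Benjamini-Hochberg adjustment over all genes, and a gene passed at an adjusted p below 0.05. Standard errors and 95% confidence intervals come from the quasi-likelihood F statistic. Permutation tests used log2(CPM + 1). Exon lengths (union of exons) came from GENCODE M21 (GRCm38), which held 98.9% of the tested genes; coordinates are those of the count table, and 6 of the 10 desmosome genes had the same ones in GENCODE. Windows of 65 bases were matched between GENCODE transcripts on both strands.

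The genes, lists, tests and alternatives were chosen with earlier results of these data known. Named were the 10 genes, all linked genes, the 3 regulators with the smallest p when none passed, adherens junction genes as counts, and the 5 genes nearest to Dsg1a and to Dsg3 among those with a mean log2 CPM above 4. Alternatives were limma-voom (limma 3.58.1), DESeq2 1.42.0, other scalings and filters, and leaving out each library. The code was tested on simulated counts. Intervals on counts and the floor of 3 counts (0.128 to 0.145 CPM) cover counting error only, as reads carry no molecular identifiers.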

Additional observations from a re-analysis of the deposited data

How the results depend on the processing

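In all 13 alternative fits (edgeR, limma-voom and DESeq2 variants and single libraries left out), 0 of the 10 desmosome genes had an adjusted p below 0.05. The number of all genes passing was 146 in the edgeR fit used above. It was 24 in limma-voom with TMM factors, 28 in limma-voom with library size only and 546 in DESeq2. After filterByExpr (13811 genes) it was 15, and it was 12 where every library had to hold 10 counts or more (13054 genes). With 1 library left out it ran from 5 (without WT c) to 521 (without WT a), and was 10 without KO a and 30 without KO c. Marker genes were not refitted. The filters test fewer genes, and no other cause was tested. Some log2 fold changes changed sign, mostly ones near 0 but also those of Dsg1c (−0.23 in edgeR) and Ppl (−0.29). Pkp3 was −0.01 with upper-quartile factors. With single libraries left out, Dsc3 ran from −0.05 to 0.10, Dsp from −0.12 to 0.00021, Pkp3 from −0.02 to 0.05, Dsg1c from −0.49 to 0.27, Pkp4 from −0.07 to 0.13, Perp from −0.02 to 0.14 and Ppl from −0.49 to 0.09. The other 13 of these 20 genes kept their direction in every fit that held them. The difference in suprabasal share stayed between 1.63 and 4.09 percentage points. The median of all genes moved by at most 0.021 (log2). No paired analysis was possible because the columns of the count table carry no replicate number that the labels give. With 3 libraries per genotype, changes of the size seen here (up to 0.45) did not pass. Counts were lowest for Dsg4, Dsg1c and Pkp2, and the effect of depth was not tested.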
